A study of Mus musculus with 6 samples.

Results

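DnaJ proteins, also called J-domain proteins or Hsp40s, are the cochaperones of the Hsp70 chaperones. The members are the 38 genes whose non-control probes carry a file name starting with Dnaja, Dnajb or Dnajc, out of 27597 gene names on the array. They comprise 4 class A, 13 class B and 21 class C genes and are represented by 77 of 41174 probes. Of these genes, 25 have more than 1 probe.

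RNA was measured on 6 Agilent arrays of 1 colour, 1 sample per array. All samples are of the B6C3 F1 mouse strain, and the labels give the age as Young or Climacteric without a number, climacteric meaning close to the end of reproductive life. The groups were young ooplasts (1 array), climacteric ooplasts (1 array), young blastocysts (2 arrays) and climacteric blastocysts (2 arrays). An ooplast is an oocyte without its chromosomes, so it holds stored maternal RNA, and a blastocyst is the early embryo in which trophectoderm surrounds the inner cell mass. The labels name no agent or allele in any group, and do not say how the blastocysts were made, how many cells were pooled for an array or whether animals were shared. The title of the series concerns reprogramming of somatic nuclei by oocytes past reproductive decline, and the design implies comparisons of stage and of maternal age.

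The J domain, a short helical bundle, stimulates the ATPase of Hsp70 and so locks Hsp70 onto an unfolded client. Nucleotide exchange factors such as the BAG proteins, GrpE-like proteins and Hsp110 proteins then release the client. Class A proteins resemble bacterial DnaJ throughout, class B proteins lack its zinc-finger region, and class C proteins share only the J domain and carry most of the specialised tasks, among them mitochondrial import, clathrin uncoating and folding in the endoplasmic reticulum. Oocytes store RNA for such proteins before transcription stops, and the embryo makes its own after genome activation.

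Inducible family members are known targets of heat shock factor and of the unfolded protein response, so upstream sequence was searched for the elements of these pathways. RefSeq windows of 300 bases (GRCm38.p6, 250 before to 50 after the start) were matched for 32 of the 38 genes, and both strands were read. The ER stress element, CCAAT and CCACG with 9 bases of any kind between, occurred in 1 member, Dnajc3, and in 0.137% of 27025 genes. Among the Hsp70 partners it occurred in Hspa5. A heat shock element of 3 alternating units, GAA, TTC and GAA with 2 bases between neighbours, occurred in 1 member, Dnajb6, and in 0.662% of genes. Among the partners it occurred in Hsph1, after the start, so that stretch is not printed. The shorter GAANNTTC, which that element contains, occurred in 4 members (Dnaja1, Dnaja4, Dnajb6 and Dnajc5g) and in 9.04% of genes. TGACGTGG, the core of the unfolded protein response element, occurred in 0 members and in 0.714% of genes. The 150 bases before the start are printed for the 3 genes that hold a long element before the start, since the stage values of these genes are described below; capitals mark the match. The Dnajc3 stretch is chr14:118937782-118937931, the Hspa5 stretch chr2:34771940-34772089 and the Dnajb6 stretch chr5:29735748-29735897, all on the + strand of GRCm38.p6.
Dnajc3: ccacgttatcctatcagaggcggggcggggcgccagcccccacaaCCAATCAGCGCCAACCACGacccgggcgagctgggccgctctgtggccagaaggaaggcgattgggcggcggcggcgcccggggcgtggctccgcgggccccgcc
Hspa5: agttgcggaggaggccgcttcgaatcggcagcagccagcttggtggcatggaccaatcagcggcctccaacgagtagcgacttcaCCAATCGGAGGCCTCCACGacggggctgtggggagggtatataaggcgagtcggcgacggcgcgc
Dnajb6: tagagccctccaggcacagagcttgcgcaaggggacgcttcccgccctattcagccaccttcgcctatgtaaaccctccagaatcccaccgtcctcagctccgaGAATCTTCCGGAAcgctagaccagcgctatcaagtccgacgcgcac

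On the arrays, between 42.2% and 57.3% of the non-control spots were well above background, with the lowest shares on the 2 ooplast arrays. Precision is limited by how few arrays there are. Levels below are log2 of the processed signal minus the 75th percentile of the array, so 0 is that percentile, and a level is set only against the same probe on another array. Of 10 oocyte markers, 10 were well above background in ooplasts and 5 or 6 in blastocysts, with Mos, Zar1 and Nlrp5 not above background on any blastocyst array. All 8 trophectoderm markers were above background on every blastocyst array, and Eomes, Elf5 and Tead4 on no ooplast array. Of 12 cumulus and granulosa cell markers, 7 were above background on each ooplast array, while Fshr, Has2, Star and Cyp11a1 were not. The summed signal of that list, in multiples of the 75th percentile, was 88.8 and 83.3 in ooplasts and 20.4 to 25.1 in blastocysts, and its part in the stage differences was not tested. In bulk samples such as these, fewer cells of a type and less RNA per cell cannot be told apart.

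Most DnaJ genes were detected on every array. At least 1 probe was well above background for 30 of 38 genes on the young ooplast array and 31 on the climacteric ooplast array. Blastocyst arrays detected 33 and 34 (young) and 36 and 36 (climacteric). On all 6 arrays 28 genes, or 73.7%, were detected, against 40% of all gene names. Class C had the largest share, 17 of 21 genes, then class A with 3 of 4 and class B with 8 of 13. Dnajb7, a testis gene, was above background on no array. Dnajb8, Dnajc5g, Dnajc6 and Dnajc12 were above background on all blastocyst arrays and on no ooplast array, and 0 genes showed the opposite pattern. Of all 27597 gene names, 2072 and 453 showed these patterns.

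**Figure D1:**
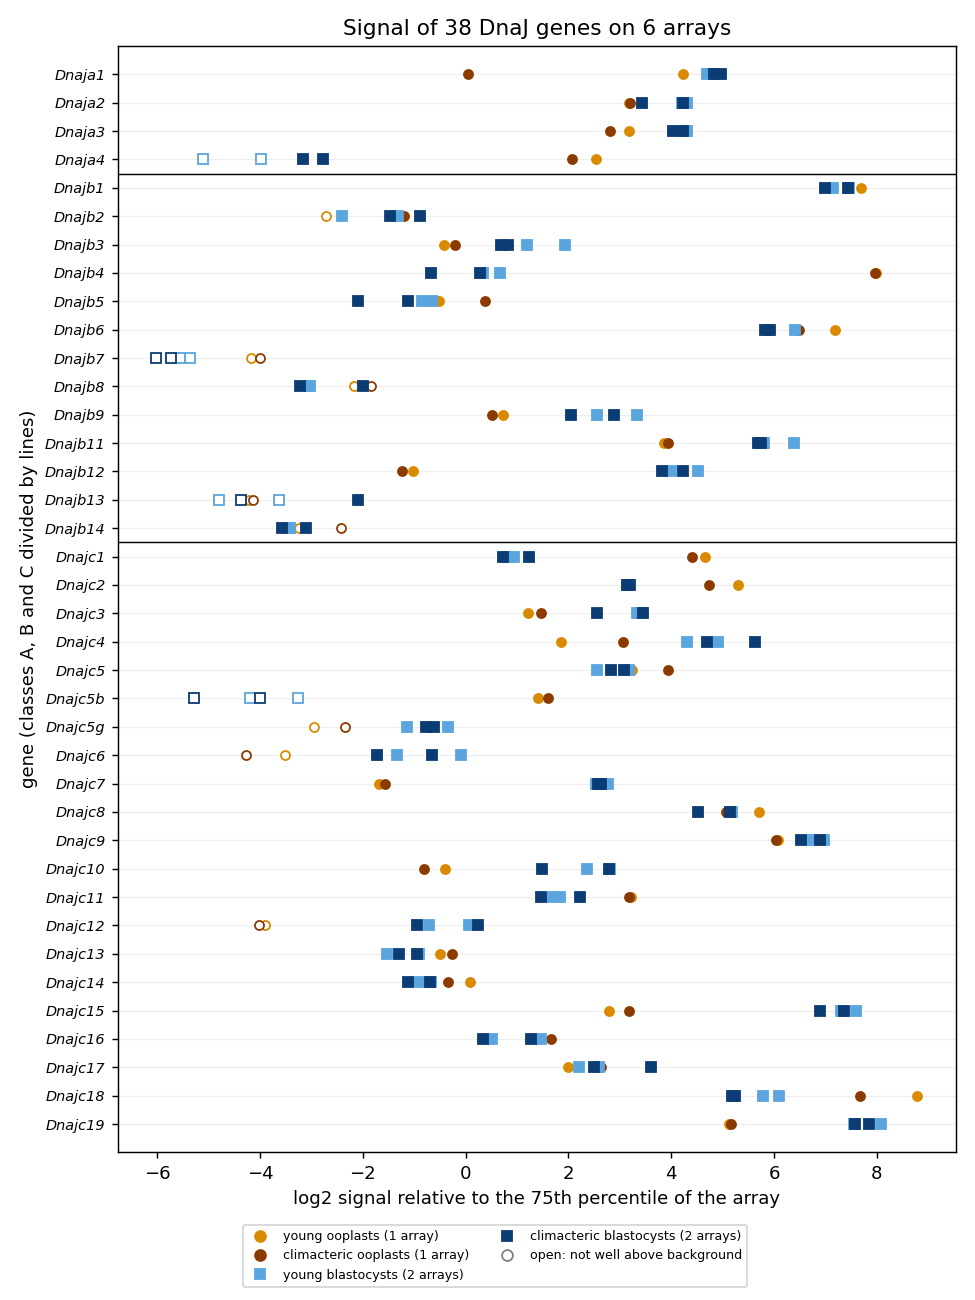
Log2 signal relative to the 75th percentile of the array (horizontal axis) for the probe that stands for each of the 38 DnaJ genes, with circles for the ooplast arrays, squares for the blastocyst arrays and open symbols where the probe was not well above background. Dnajb4 lies near 7.98 in ooplasts and between -0.68 and 0.66 in blastocysts, Dnajb12 goes the other way, and the climacteric ooplast array stands alone at 0.039 for Dnaja1.

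Between ooplasts and blastocysts, 17 DnaJ genes were higher and 10 lower in blastocysts among the 35 tested, while 8 did not pass (limma with Benjamini-Hochberg adjustment over all 15605 genes tested, threshold 0.05, age as a term). Of all genes tested, 74.5% passed, 35.5% higher and 39% lower, so the share of 77.1% among the members lay near that background. The median difference was 0.43 for the members and -0.26 for all genes. Class A had 3 higher and 1 lower of 4, class B 4 higher and 2 lower of 10, and class C 10 higher and 7 lower of 21. Dnajc5g, Dnajc6 and Dnajc12 (higher) and Dnaja4 and Dnajc5b (lower) met the filter only through the stage where they were high. For these genes the p-value is no separate support. Among probes well above background on every array, 14 members were higher and 8 lower of 28 tested, where 74.3% of 10910 genes passed. With the replicate number as a block, which here is also the slide, 14 members were higher and 9 lower. In that fit 69% of all genes passed. Dnaja1, Dnaja2, Dnajb6, Dnajc9 and Dnajc13 lost their call with the block (limma adjusted p from 0.0544 to 0.146), and Dnajb8 gained a call in the lower direction (adjusted p = 0.0485). Within slide 1, which holds both ooplast arrays and 1 array of each blastocyst group, 14 members were higher and 7 lower. There 63.4% of all genes passed. Slide 2 holds blastocysts only.

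**Figure D2:**
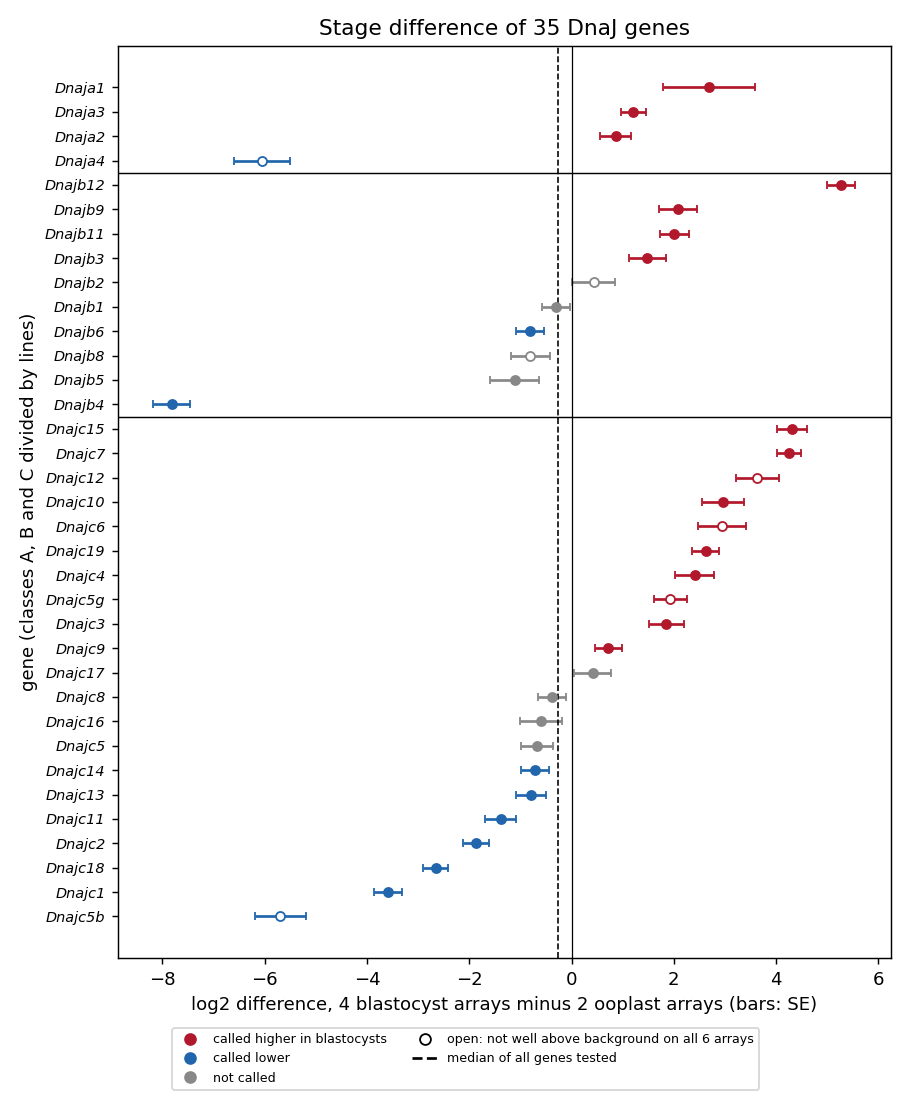
Log2 difference of the 4 blastocyst arrays minus the 2 ooplast arrays with its SE (horizontal axis) for the 35 DnaJ genes tested, by class, with red for called higher, blue for called lower and grey for not called. Differences run from -7.82 (Dnajb4) to 5.27 (Dnajb12), and the dashed line marks the median of all genes, -0.26.

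The cytosolic class A genes Dnaja1 and Dnaja2 encode general Hsp70 cochaperones for folding and membrane targeting. Dnaja1 measured 4.23 in young and 0.039 in climacteric ooplasts, and 4.70, 4.78 (young), 4.96 and 4.84 (climacteric) on the blastocyst arrays. It was higher in blastocysts by 2.69 ± 0.90 (SE; limma adjusted p = 0.0331), with ooplasts at 2.13 ± 2.96 (SD, n = 2) and blastocysts at 4.82 ± 0.113 (SD, n = 4). The groups did not overlap, but the ooplast arrays lay far apart. Without the climacteric ooplast array the Dnaja1 difference was 0.51 (adjusted p = 0.24), and without the young array it was 4.86 (adjusted p = 0.000318). Leaving out climacteric blastocyst replicate 1 or 2 also ended the call, at 2.35 and 2.40. Dnaja2 measured 3.18 and 3.19 in ooplasts and 3.44 to 4.31 in blastocysts, a difference of 0.86 ± 0.31 (limma adjusted p = 0.0432). That call was lost without any 1 array other than climacteric blastocyst replicate 1, at 0.64 to 1.08.

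Dnaja4, also a cytosolic class A gene, fell steeply. It measured 2.53 and 2.06 in young and climacteric ooplasts, and -5.11, -3.99 (young), -3.17 and -2.77 (climacteric) in blastocysts. Only the 2 climacteric blastocyst arrays were well above background. The difference was -6.05 ± 0.55 (limma adjusted p = 0.000126), and no blastocyst array reached the level of an ooplast array. A second Dnaja4 probe was not well above background on any array.

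On the probes that stand for them, the cytosolic and nuclear class B genes had 0 higher and 2 lower of 5, with a median difference of -0.81. Over all genes tested the shares were 35.5% higher and 39% lower. Dnajb6 and Dnajb1 each had another probe called higher, as described below. Dnajb4, an Hsp40 of the same group as the main heat shock gene Dnajb1, had the largest change among the probes that stand for the members. It measured 7.98 and 7.96 in young and climacteric ooplasts and 0.34, 0.66 (young), -0.68 and 0.27 (climacteric) in blastocysts, a difference of -7.82 ± 0.36 (limma adjusted p = 1.4e-05). Its probe lies at chr3:152121669-152121728 (mm8). A second Dnajb4 probe at chr3:152123886-152123945, 2.41 and 2.47 in ooplasts, was above background on no blastocyst array, so the ooplast level was at least 71.0-fold higher. Another probe was above background on 2 blastocyst arrays and on no ooplast array and was not tested.

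Dnajb6, a suppressor of protein aggregation that mouse embryos need for placental development, measured 7.19 and 6.48 in ooplasts and 5.90, 6.41 (young), 5.93 and 5.83 (climacteric) in blastocysts. Its fall of 0.81 ± 0.28 on the log2 scale passed narrowly (limma adjusted p = 0.0353) and was lost without any 1 of the 6 arrays (-1.03 to -0.60). Dnajb1, the classical heat-inducible Hsp40, measured 7.69 and 7.44 in ooplasts and 7.0 to 7.45 in blastocysts, and the groups overlapped (-0.31 ± 0.27, limma adjusted p = 0.327). Dnajb2, a neuronal Hsp40 listed on the array as Dnajb10, gave 0.43 ± 0.42 with 1 of 2 ooplast arrays above background. Dnajb5 measured -0.52 and 0.38 in ooplasts and -0.65, -0.85 (young), -2.09 and -1.13 (climacteric) in blastocysts, and gave -1.11 ± 0.48 (limma adjusted p = 0.0773). Without the young ooplast array that Dnajb5 value became -1.99 and passed (adjusted p = 0.0184).

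Among class B genes named for testis expression, Dnajb3 was higher in blastocysts. It measured -0.43 and -0.21 in ooplasts and 1.19, 1.93 (young), 0.83 and 0.68 (climacteric) in blastocysts, a difference of 1.48 ± 0.36 (limma adjusted p = 0.00973). Leaving out the array of young ooplasts gave 0.97, which no longer passed (adjusted p = 0.103). Dnajb8 did not pass, at -0.81 ± 0.38, and passed at -1.08 without climacteric blastocyst replicate 2. Its probe was above background in blastocysts and not in ooplasts, although its scaled signal was lower in blastocysts, so no bound is given. Dnajb13, a sperm axoneme gene, was above background on 1 blastocyst array only and, with Dnajb7, was not tested.

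Genes listed here under the endoplasmic reticulum included 5 higher and 2 lower of 8 tested, with a median difference of 1.93, on the probes that stand for them. Dnajc18, which fell, was not in this list and is described below. Of all genes tested, 35.5% were higher and 39% lower. The 5 include Dnajc3 and Dnajc10, which also had probes called lower. Dnajb12, a membrane protein that takes part in degradation of misfolded proteins, showed the largest rise among the probes that stand for the members. It measured -1.03 and -1.23 in young and climacteric ooplasts, and 4.0, 4.52 (young), 3.82 and 4.23 (climacteric) in blastocysts. The difference was 5.27 ± 0.28 (limma adjusted p = 1.8e-05) at chr10:59294563-59294622 (mm8). A second Dnajb12 probe gave 0.98 ± 0.55 and did not pass (limma over probes, adjusted p = 0.146), so the size rests on 1 probe.

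Dnajb9 and Dnajb11, lumenal Hsp40s of the ER known as targets of the unfolded protein response, both rose. Dnajb9 measured 0.73 and 0.52 in ooplasts and 2.56, 3.33 (young), 2.04 and 2.88 (climacteric) in blastocysts, a difference of 2.08 ± 0.37 (limma adjusted p = 0.00244). A second Dnajb9 probe was above background in blastocysts only and at least 2.27-fold higher there. Dnajb11 measured 3.86 and 3.94 in ooplasts and 6.39, 5.81 (young), 5.74 and 5.68 (climacteric) in blastocysts, a difference of 2.01 ± 0.29 (limma adjusted p = 0.00094). No blastocyst array overlapped an ooplast array for either gene.

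Dnajc10 and Dnajc3, a disulfide reductase and an inhibitor of the kinase PERK that also acts in the ER lumen, were called higher on their brightest probes. Dnajc10 measured -0.40 and -0.81 in ooplasts and 2.37, 2.80 (young), 1.49 and 2.79 (climacteric) in blastocysts (2.97 ± 0.41, limma adjusted p = 0.000758). Dnajc3 measured 1.22 and 1.46 in ooplasts and 3.33, 3.41 (young), 2.56 and 3.46 (climacteric) in blastocysts (1.85 ± 0.34, limma adjusted p = 0.00301). Brightness was the mean over the 6 arrays, of which 4 are blastocyst arrays. On the ooplast arrays another probe of each gene was brighter, at 0.90 and 1.48 for Dnajc10 and 5.13 and 4.19 for Dnajc3. Those probes were not called (Dnajc10) and called lower (Dnajc3), so the direction depends on the choice of probe. Other probes of both genes went the opposite way, as described below.

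Dnajc1, an ER membrane protein that binds ribosomes, fell. It measured 4.65 and 4.40 in young and climacteric ooplasts and 0.83, 0.95 (young), 0.72 and 1.23 (climacteric) in blastocysts, a difference of -3.59 ± 0.27 (limma adjusted p = 5.9e-05). A second Dnajc1 probe gave -1.16 ± 0.45 (limma over probes, adjusted p = 0.0543). Dnajc14, which aids export of receptors from the ER, measured 0.085 and -0.35 in ooplasts and -0.91, -0.68 (young), -1.13 and -0.69 (climacteric) in blastocysts. It fell by 0.72 ± 0.27 on the log2 scale (limma adjusted p = 0.0471), and the call was lost without any 1 array other than climacteric blastocyst replicate 2 (-0.88 to -0.56). Dnajc16 overlapped between stages (-0.60 ± 0.41). Dnajb14 was above background on 3 blastocyst arrays and was not tested.

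Of the 5 mitochondrial genes, 4 were higher in blastocysts and 1 lower, with a median difference of 2.41. The shares over all genes tested were 35.5% higher and 39% lower. Dnajc15, an inner membrane protein related to the import motor, measured 2.79 and 3.18 in young and climacteric ooplasts and 7.60, 7.31 (young), 6.90 and 7.37 (climacteric) in blastocysts. The difference was 4.31 ± 0.30 (limma adjusted p = 4.2e-05), measured by 1 probe at chr14:76560443-76560502 (mm8). Dnajc19, the J protein of that import motor, measured 5.12 and 5.16 in ooplasts and 8.08, 7.55 (young), 7.58 and 7.85 (climacteric) in blastocysts (2.62 ± 0.27, limma adjusted p = 0.000221), and a second probe opposed it, as described below.

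Dnajc4, a little-studied mitochondrial member, measured 1.86 and 3.07 in ooplasts and 4.90, 4.30 (young), 5.63 and 4.69 (climacteric) in blastocysts, a difference of 2.41 ± 0.38 (limma adjusted p = 0.00147). Dnaja3, the class A cochaperone of the matrix, measured 3.18 and 2.81 in ooplasts and 4.03 to 4.30 in blastocysts, a difference of 1.21 ± 0.24 (limma adjusted p = 0.00403). A second Dnaja3 probe, dim and above background on 1 ooplast array, gave 1.07 ± 0.88 and did not pass. Dnajc11, found with the complex that shapes mitochondrial cristae, was the mitochondrial gene that fell, from 3.21 and 3.17 to 1.68, 1.83 (young), 2.23 and 1.46 (climacteric) (-1.39 ± 0.30, limma adjusted p = 0.00603), and a second probe gave -1.96 ± 0.36.

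Vesicle and endosome genes were divided, with 2 higher and 2 lower of 5, against 35.5% and 39% of all genes tested. Of the 5, Dnajc5b, Dnajc6 and Dnajc5g met the filter only through the stage where they were high. Dnajc5b, a relative of the cysteine string protein, measured 1.41 and 1.61 in young and climacteric ooplasts and -3.27, -4.19 (young), -4.0 and -5.28 (climacteric) in blastocysts on its brighter probe. That probe was above background on no blastocyst array, which makes ooplasts at least 36.2-fold higher (fitted difference -5.70 ± 0.50, limma adjusted p = 0.000106; ooplast mean 1.51, blastocyst mean -4.19). The dimmer Dnajc5b probe, above background on both ooplast arrays and 1 blastocyst array, gave -3.06 ± 0.73 (limma over probes, adjusted p = 0.00902). Bounds of this kind take the dimmer group at the lowest signal that was well above background on its arrays, or at its own signal where higher. Dnajc6, auxilin, which strips clathrin from vesicles, was above background in blastocysts only, at -1.34, -0.086 (young), -1.73 and -0.65 (climacteric), and at least 2.46-fold higher there (limma adjusted p = 0.00153). Dnajc5g, another string protein relative, measured -0.35, -1.14 (young), -0.62 and -0.77 (climacteric) in blastocysts and was at least 2.89-fold higher in blastocysts (limma adjusted p = 0.0019).

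With a different background correction (normexp) the calls of Dnajc6 and Dnajc5g were lost, at 0.77 and 0.59. The fitted values of Dnajc5b, Dnaja4 and Dnajc12 shrank to -3.77, -4.31 and 1.23. The values of Dnajc6, Dnajc5g and Dnajc5b then lay under the bounds given above, and that of Dnajc12 under the bound given below. These bounds therefore depend on the background correction. Dnajc13, which works on endosomes, measured -0.49 and -0.27 in ooplasts and -0.91, -1.53 (young), -0.94 and -1.29 (climacteric) in blastocysts. It fell by 0.79 ± 0.29 on the log2 scale (limma adjusted p = 0.0452), a call lost without any 1 array other than young blastocyst replicate 1 (-0.86 to -0.67). Dnajc5, the cysteine string protein itself, did not pass on its brightest probe (-0.68 ± 0.31, limma adjusted p = 0.088). It passed at -0.86 without young blastocyst replicate 1. On 2 other probes Dnajc5 was called higher, as described below.

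Of 3 nuclear genes 1 was higher and 0 were lower, and the 1 gene of translation fell. Over all genes tested, 35.5% were higher and 39% lower. Dnajc9, a histone chaperone, measured 6.08 and 6.04 in ooplasts and 6.53 to 6.97 in blastocysts (0.72 ± 0.26, limma adjusted p = 0.0407), and lost its call without any 1 array other than climacteric blastocyst replicate 1 (0.65 to 0.77). A second Dnajc9 probe, above background on every array, lay in the other direction at -1.52 ± 0.60 and did not pass (limma over probes, adjusted p = 0.0559). The spliceosome-associated Dnajc8 and Dnajc17 overlapped between stages, at -0.38 ± 0.28 and 0.41 ± 0.37. Another probe of each of these genes was called lower, as described below. Dnajc2, which acts on nascent chains at the ribosome, fell from 5.30 and 4.74 to 3.14, 3.15 (young), 3.20 and 3.14 (climacteric), a difference of -1.87 ± 0.26 (limma adjusted p = 0.000813), with a second probe at -1.43 ± 0.33.

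The 3 remaining class C genes moved strongly. Dnajc7, whose repeats bind both Hsp70 and Hsp90, measured -1.68 and -1.56 in young and climacteric ooplasts and 2.76, 2.54 (young), 2.63 and 2.58 (climacteric) in blastocysts. The difference was 4.25 ± 0.24 (limma adjusted p = 2.1e-05), by 1 probe at chr11:100399165-100399224 (mm8). Dnajc12, a cochaperone of aromatic amino acid hydroxylases, was above background in blastocysts only, at -0.71, 0.074 (young), -0.94 and 0.25 (climacteric), and at least 3.78-fold higher there (limma adjusted p = 0.000352). Dnajc18 fell from 8.79 (young) and 7.68 (climacteric) in ooplasts to 5.79, 6.10 (young), 5.24 and 5.18 (climacteric) in blastocysts, a difference of -2.66 ± 0.25 (limma adjusted p = 0.000152).

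Several members gave a stage difference that depended on the probe. Over 1 probe was tested for 19 genes. In 2 genes (Dnaja1 and Dnajb9) every tested probe was called higher, and in 4 (Dnajb4, Dnajc2, Dnajc5b and Dnajc11) every tested probe was called lower. In 8 genes the calls ran 1 way with another probe not called, in Dnajb5 no probe was called, and in 4 genes probes were called in both directions (limma fitted to 20983 probes, of which 73.8% passed). In Dnaja1, Dnajb9, Dnajb4 and Dnajc11 a tested probe met the filter only through the stage where it was high, as did both Dnajc5b probes. So did the Dnajb6 and Dnajc5 probes called higher and the Dnajc10 probe called lower. For these probes the p-value is no separate support. Exons were not assigned here, because no mm8 annotation was used, so the transcript each probe reads is not given.

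Dnajc3 was the plainest case, with 4 tested probes on chromosome 14 (mm8). The probe at chr14:117860587-117860646 stands for the gene and rose by 1.85. The probe at chr14:117857821-117859325 measured 5.13 and 4.19 in young and climacteric ooplasts and 0.92 to 1.70 in blastocysts, a difference of -3.45 ± 0.34 (limma over probes, adjusted p = 0.000165). Another at chr14:117853350-117854969 gave -2.89 ± 0.42 (adjusted p = 0.000973), and the last at chr14:117861467-117861526 gave -1.35 ± 0.57 and did not pass. So 1 of the 4 Dnajc3 probes was higher in blastocysts, and the direction given above for Dnajc3 holds for that probe only.

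Dnajb6 had the widest split. The probe at chr5:30117108-30117167 that stands for the gene fell by 0.81, while the probe at chr5:30097214-30097273 measured -3.80 and -4.01 in ooplasts, not above background, and 2.03 to 2.91 in blastocysts. It was at least 25.1-fold higher in blastocysts (fitted difference 6.31 ± 0.29, limma over probes, adjusted p = 1.3e-05). The Dnajb6 gene is known to give a long nuclear and a short cytosolic protein; which probe reads which was not tested.

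Dnajc10 gave 2.97 at chr2:80154311-80154370, -0.05 ± 0.33 at chr2:80154447-80154506 and -2.47 ± 0.47 at chr2:80118406-80120025 (adjusted p = 0.00326 for the last, limma over probes). Dnajc19 gave 2.62 at chr3:34270339-34270757 and -3.25 ± 0.75 at chr3:34248203-34248262 (limma over probes, adjusted p = 0.00754). For 4 genes not called on the brightest probe, another probe was called. Dnajc5 had 2 such probes, at 3.62 ± 0.53 and 3.82 ± 0.27, the latter at least 3.81-fold higher in blastocysts. Dnajb1 had 1 at 1.65 ± 0.32, Dnajc8 1 at -1.22 ± 0.31 and Dnajc17 1 at -1.06 ± 0.30, with limma adjusted p values over probes of 0.0037, 0.012 and 0.0169.

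**Figure D3:**
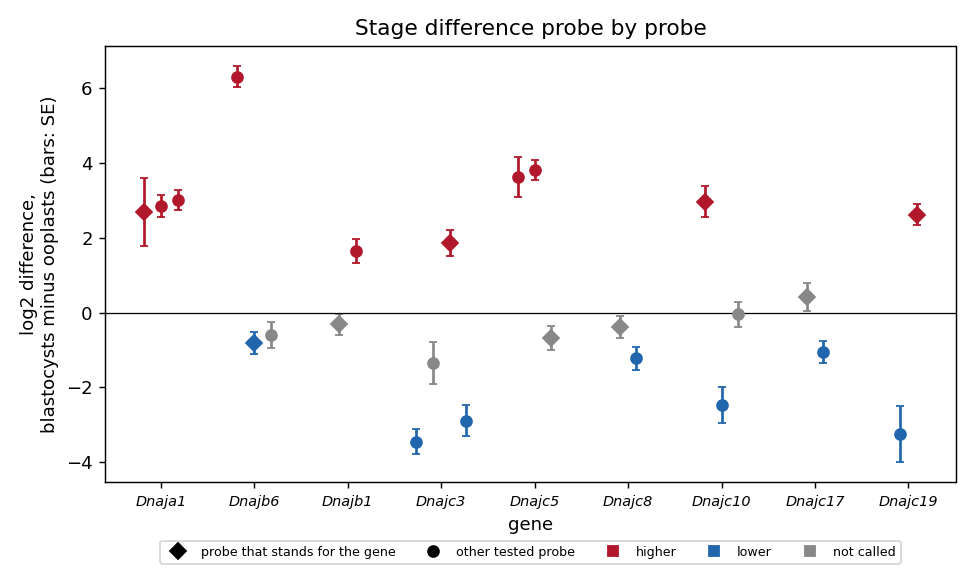
Log2 difference of blastocysts minus ooplasts with its SE (vertical axis) for every tested probe of 9 DnaJ genes, with diamonds for the probe that stands for the gene and colours for the call of each probe. The 3 probes of Dnaja1 lie between 2.69 and 3.01, while those of Dnajc3, Dnajc10, Dnajc19 and Dnajb6 fall on both sides of 0.

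The Hsp70 partners did not move as a block. Here and in the lists of exchange factors and other J-domain genes, 1 probe stands for each gene. Their other probes were not compared by stage. Of 9 tested Hsp70 genes, 2 were higher in blastocysts and 3 lower, with a median of -0.10. The shares over all genes tested were 35.5% and 39%. The constitutive cytosolic Hspa8 measured 2.05 and 1.40 in ooplasts and 6.86 to 7.36 in blastocysts (5.37 ± 0.28, limma adjusted p = 1.7e-05). Hspa5 (BiP), the Hsp70 of the ER, measured -0.20 and -1.60 in ooplasts and 3.76 to 4.05 in blastocysts (4.79 ± 0.37, limma adjusted p = 6.4e-05). Hspa9 (mortalin), the mitochondrial Hsp70, went the other way, from 8.87 and 8.10 in ooplasts to between 5.77 and 6.74 in blastocysts (-2.18 ± 0.24, limma adjusted p = 0.000298). The others that fell were Hspa12b, at -2.97 ± 0.30, and Hspa1l, at -0.94 ± 0.24.

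On the probes that stand for them, the nucleotide exchange factors were mostly higher in blastocysts. Of 14 genes 12 were higher and 1 lower, with a median difference of 2.75. Of all genes tested, 35.5% were higher and 39% lower. The probes that stand for Bag2 and Grpel2 were above background on no ooplast array, and those for Bag1, Bag3 and Bag4 on 1 of 2. These genes met the filter only through the blastocyst arrays, so their p-values are no separate support. The largest rises were those of Bag5 (5.52 ± 0.27), Bag3 (5.49 ± 0.84), Hsph1 (4.85 ± 0.25), an Hsp110 protein, and Grpel1 (4.39 ± 0.24), the mitochondrial exchange factor. The brighter Bag3 probe measured 2.35 in young ooplasts and -2.15, below background, in climacteric ooplasts, against 5.32 to 5.87 in blastocysts. The other Bag3 probe was above background on both ooplast arrays, at -1.92 (young) and -1.33 (climacteric). Hyou1, the ER Hsp110, was lower (-1.54 ± 0.23), and Bag6 did not pass (-0.82 ± 0.54).

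J-domain genes that the array lists under names outside the rule numbered 12, of which 10 were tested. Dnajc30, Gak (the broadly expressed auxilin) and Dnajc24 were higher, by 3.13 ± 0.62, 3.02 ± 0.34 and at least 3.35-fold. Dnajc25, Hscb (iron-sulfur cluster transfer) and Dnajc21 (ribosome assembly) were lower, at -1.61 ± 0.27, -1.17 ± 0.29 and -0.90 ± 0.26. The median was 0.076, and 4 genes, Sec63 and the import motor gene Pam16 among them, did not pass. Over all genes tested the shares were 35.5% higher and 39% lower.

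In blastocysts no DnaJ gene was called for maternal age, 0 of 35 tested in limma over 15971 genes, against a background of 0%. At an unadjusted p under 0.05 there was 1 member, against 5.41% of all genes. The median difference, climacteric minus young, was -0.12 for the members and 0.0072 for all genes, and 0.039 and 0.16 with the array scaled on probes detected on all arrays. The 2 climacteric arrays lay above the 2 young arrays for 2 members, where 16.2% of all genes did so, and below them for 7, where 13.8% did.

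The member with the small unadjusted p was Dnaja4, at -5.11 and -3.99 in young and -3.17 and -2.77 in climacteric blastocysts. The fitted difference was 1.58 ± 0.46 (limma over all genes, unadjusted p = 0.0172, adjusted p = 0.725), higher on both slides (1.95 on slide 1 and 1.22 on slide 2). Neither young array was above background, so Dnaja4 met the filter only through the climacteric arrays and its p-value is no separate support. The climacteric level was at least 1.49-fold higher. With normexp the Dnaja4 difference was 0.44, less than that bound, and over 11 alternatives it ran from 0.44 to 2.14. Dnaja1 was the other gene without overlap upwards, by only 0.17 ± 0.28.

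The largest differences downwards without overlap were those of Dnajb5, Dnajb3, Dnajc18 and Dnajb4. They measured -0.86 ± 0.41, -0.81 ± 0.36, -0.73 ± 0.29 and -0.71 ± 0.41, with limma adjusted p of 1, 0.993, 0.923 and 1. Within slide 1 the differences were -1.44, -0.37, -0.55 and -1.02, and within slide 2 -0.28, -1.25, -0.92 and -0.39, so each was negative on both slides. With the slide as a block the lowest adjusted p among these genes and Dnaja4 was 0.412.

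Macrophage markers moved with age on some of the same arrays. Of 14 markers, 5 were detected in young and 10 in climacteric ooplasts, and 6 and 5 on the young and 10 and 8 on the climacteric blastocyst arrays. Their summed signal, in multiples of the 75th percentile, was 4.28 and 47.8 in young and climacteric ooplasts. In blastocysts it was 3.56 (young) and 42.2 (climacteric) on slide 1, and 3.73 and 3.54 on slide 2. The markers Itgam and C1qa were above background on no array. Their part in the age differences was not tested.

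The ooplast groups hold 1 array each, so their difference has no replicate check and no test was run. Among 30 DnaJ genes measured on both arrays, 1 was at least 2-fold higher in climacteric ooplasts and 2 were at least 2-fold lower. Of all 12291 genes measured on both, 7.36% were at least 2-fold higher and 9.86% lower. The member median was -0.028 and that of all genes 0.15, with 14 members above 0 and 16 below.

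Dnaja1 stood apart, at 4.23 in young and 0.039 in climacteric ooplasts, a difference of -4.19 or 18.2-fold. Its second probe differed by -0.49 (0.13 and -0.36), and the remaining probe was not above background in ooplasts, so the size was seen on 1 probe, at chr4:40922298-40922357 (mm8). Dnajc18 differed by -1.11 and Dnajc4, in the other direction, by 1.20. With the authors' values the differences were -4.17 for Dnaja1, -0.53 for Dnajc18 and 1.39 for Dnajc4. Next in size came Dnajb6 (-0.71), Dnajc8 (-0.65) and Dnajc2 (-0.56) among the lower, which became -0.12, -0.19 and -0.14 with the authors' values, and Dnajb5 (0.90), Dnajc5 (0.72), Dnajc17 (0.65) and Dnajc15 (0.38) among the higher.

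Some probes outside this set, read on 1 ooplast array only, or not standing for their gene, also differed. The second Dnajc19 probe measured 4.81 in young and 1.64 in climacteric ooplasts. The second Dnajc1 probe measured 2.40 and 0.59. Further probes above background on both ooplast arrays went both ways, climacteric minus young. The differences were 1.27 for a Dnajc10 probe and 1.12 for a Dnajb12 probe, and -1.08 for a Dnajb6 probe and -1.06 for a Dnajc3 probe. In young ooplasts the dimmer Dnaja3 probe was at least 3.12-fold higher, a dimmer Dnajc5 probe at least 2.98-fold and a dimmer Dnajc17 probe at least 1.30-fold, the last 2 against the direction of the brightest probe of their gene. Dnajb2 was at least 2.16-fold higher in climacteric ooplasts, the ooplast array on which it was above background. Among Hsp70 genes, 7 of 7 measured on both arrays lay below 0, as did 5058 of 12291 genes.

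The age differences of the stages were compared as an interaction, with single ooplast arrays assumed to vary like the blastocysts. Of 36 members tested 1 was called, Dnaja1, where 0.821% of 17412 genes were; at an unadjusted p under 0.05 it was again 1 member, against 8.8% of genes. Its climacteric minus young difference was 0.17 in blastocysts and -4.19 in ooplasts, 4.35 ± 0.48 apart (limma adjusted p = 0.0444). The call rests on 1 probe and on 1 array of each ooplast group, and the other Dnaja1 probes differed by -0.49 and, below background, 0.14 between the ooplast arrays. The call was lost without any 1 of the 4 blastocyst arrays, with adjusted p from 0.0675 to 0.187 and values of 4.29 to 4.41. Over its 10 alternatives the adjusted p ran from 0.0127 to 0.187. Dnajb5 and Dnaja4, at -1.76 ± 0.72 and 2.05 ± 0.81, did not pass (limma adjusted p = 0.596 and 0.579).

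**Figure D4:**
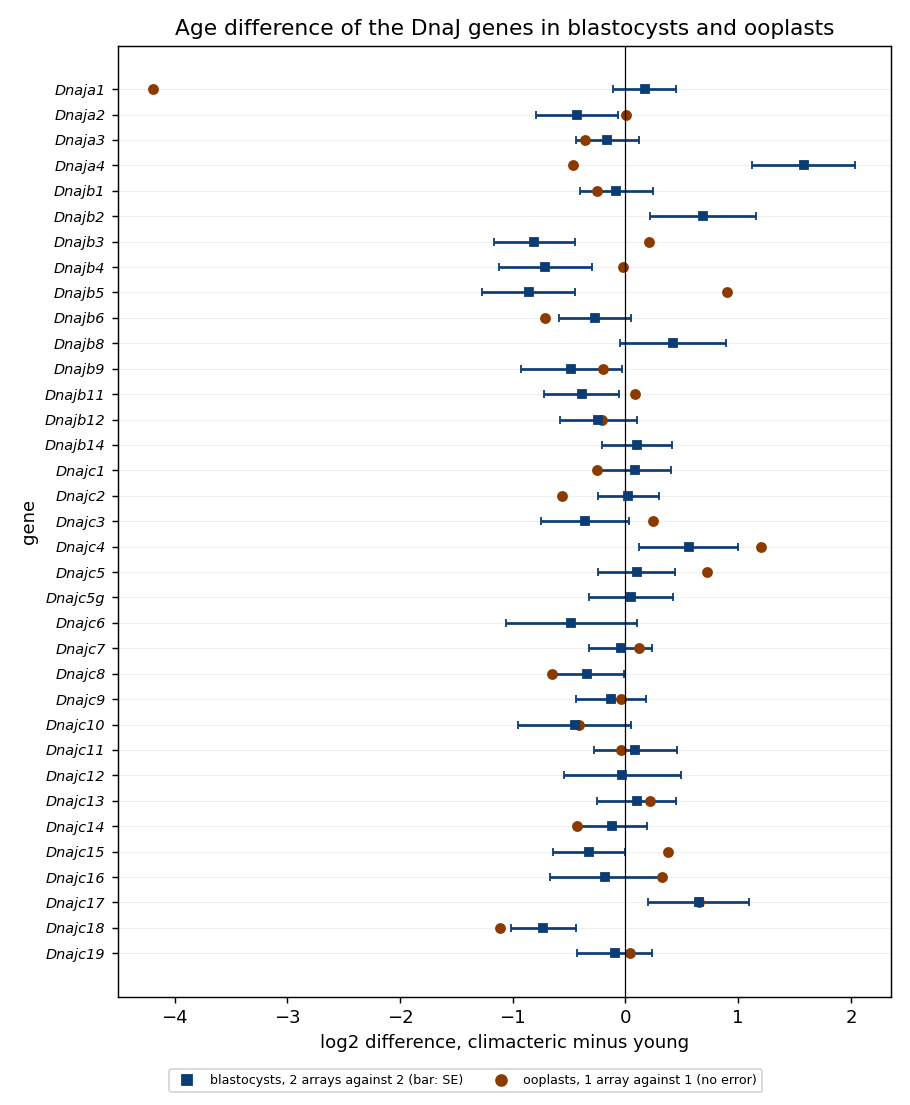
Log2 difference of climacteric minus young (horizontal axis) in blastocysts, 2 arrays against 2 with the SE as a bar, and in ooplasts, 1 array against 1 with no error, for the 35 DnaJ genes tested in blastocysts. Dnaja1 lies at -4.19 in ooplasts and 0.17 in blastocysts, and the remaining ooplast differences lie between -1.11 and 1.20.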

How the data were processed

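The members and lists were chosen with earlier results of these data known. Per the labels' protocols, column-purified total RNA was amplified and labelled with Cy3. Per the submitters' processing notes, Agilent Feature Extraction 9.5 was used, and per the file headers the deposited spot intensity was background-subtracted and probes were placed on mm8. The authors' deposited log2 table (each column's median 6.25, rank correlation 1 with its array) served as an alternative.

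Intensities were scaled to the 75th percentile of non-control spots and taken to log2. Spots flagged as outliers were left out, and saturated spots kept. Probes had to be well above background (at least 0.5 of their spots) on every array of 1 compared group, and the brightest stood for its gene. The brightest had the highest mean over the 6 arrays, of which 4 are blastocyst arrays, so blastocyst signal weighed more in the choice. Limma 3.58.1 in R 4.3.3 (lmFit, eBayes, two-sided, Benjamini-Hochberg, 0.05) gave the tests, which were tested on simulated data. Replicates are called biological but no animals are named, so a p-value here reflects only how these samples vary, which may be technical.

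Gene names came from RefSeq (GRCm38.p6). Per-array values are given for the 10 largest called rises and falls above background on all arrays, up to 6 bounds per direction, the age genes described (4 or 5 per direction) and genes with opposed probes. Other members and opposed second probes have ranges or differences. Partners are the 4 largest called per direction in each list, with Hspa8, Hspa5 and Hspa9. Alternatives changed normalization, background correction, filter, block, slide, fold and replicates.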

Additional observations from a re-analysis of the deposited data

Results flagged for a closer look

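In 4 of the 33 genes screened, 1 of the 4 blastocyst arrays lay far from the other 3, by the gap to the nearest array as a share of the whole range. That share was 0.888 for Dnaja2, 0.853 for Dnajc3 and 0.937 for Dnajc8, each with climacteric replicate 1 lowest. It was 0.837 for Dnajb8, with climacteric replicate 2 highest. Chance gives such a gap in about 1 in 20 groups.

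The climacteric minus young difference of Dnaja1 was 0.17 in blastocysts and -4.19 in ooplasts, which are 4.35 apart on the log2 scale by the limma interaction given above. Each ooplast group is 1 array, and the value rests on 1 of 3 probes.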

How the results depend on the processing

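The stage counts (17 higher, 10 lower) stayed within 1.5 times under every alternative run. Of the 27 called members 16 kept direction and call under all of their up to 17 alternatives, and 27 of 27 never reversed. These counts follow 1 probe per gene and leave out its other probes. Dnajc3, Dnajc10 and Dnajc19, which are among the 16, and Dnajb6 had another probe called in the opposite direction. Their direction therefore depends on the probe. Values reversed for 3 genes, which were not called: Dnajb1 (0.39 with quantile normalization, 0.12 with normexp, 0.50 with the authors' values), Dnajb2 (-0.29 with normexp) and Dnajc8 (0.044 with normexp). The cause was not tested. The median stage difference of all genes moved from -0.26 to -0.46 with scaling on probes detected on all arrays, and to -0.14 with the authors' values.

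The interaction count of 1 became 0 with quantile normalization, with the authors' values and without the filter on dim probes, and ran from 0 to 0 with 1 blastocyst array left out. Between ooplasts, the count of genes at least 2-fold higher was 2 with scaling on detected probes and 2 with the authors' values, and the count lower was 1 with each and 1 with quantile normalization, so the split of 1 to 2 turned. At 1.5-fold the counts were 4 and 4, and at 3-fold 0 and 1.

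The replicate numbers were not shown to pair the arrays, since the correlation of replicate deviations was 0.194 over 2 pairs. With the replicate block, 14 members were higher and 9 lower by stage, where 69% of all genes passed, and 0 were called for age. No interaction was fitted with it. Of the 6 arrays, the ooplast arrays had the lowest signal over background, which limits what dim probes show.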
